A study of Triticum aestivum with 72 samples.

Results

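The subject is the set of 100 wheat probe sets whose signal fell most closely as that of the heat shock gene hsp16.9A rose across the seed samples. A probe set is a group of short array probes read together as 1 transcript signal. The members were chosen from the deposited intensities, after log2 transformation, by a rule on the 72 arrays. A probe set had to be no Affymetrix control and to have a mean log2 intensity of at least 6, and the 100 with the most negative Pearson correlation (r) with the probe set for hsp16.9A, Ta.24332.1.S1_at, were kept. They are 100 of the 25401 other probe sets with that mean and of 61179 probe sets in all besides the controls. The correlations that chose them are given below as a description, with no test.

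The seeds were those of bread wheat, Triticum aestivum, taken 5 days after anthesis from field-grown plants of 36 lines bred from the cross RL4452 × AC Domain, a mapping population. Each line carried 2 arrays, 1 for each of 2 biological replicates, numbered 1 and 3 in 35 lines and 2 and 3 in line H9. The field held 39 lines and the parents in 3 replications, and no array of a parent is among the 72. No group received a treatment, no temperature is given in the labels, and seed tissues were not separated. A lower signal in a whole seed can mean fewer cells of a type or less RNA per cell, and these cannot be told apart.

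hsp16.9A (LOC543277) encodes a small heat shock protein, a class of chaperones that hold unfolding proteins in a state from which they can be refolded. Small heat shock genes of plants are induced strongly by heat through heat shock factors, and they are also expressed late in seed maturation. During heat stress many transcripts of ordinary growth are reduced while the chaperone transcripts accumulate. What the members encode is mostly not given. Only 2 of the 100 (2%) had a gene symbol in the supplied annotation, against 3.3% of the 25401, and both symbols are locus numbers of protein-coding genes with no role attached.

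The arrays of some lines did not match each other. Over 187 probe sets whose 72 values separated into a low and a high class, with a gap of at least 0.5 log2 units and at least 10 arrays on each side, both arrays of a line should lie in the same class if they carry the same genotype. In 12 lines (H5, A91, B11, A40, F38a, E5, G32, F36, C25, J15, DH91 and D15) they did so in 47.1% to 69.5% of these probe sets, and in the other 24 lines in 77% to 99.5%. The main results that rest on line labels are therefore given with and without the 12 lines. None of the 100 members was itself of this kind. The widest gap among the members was 0.193 log2 units, in Ta.18278.1.S1_at, followed by 0.169 in Ta.5420.2.S1_a_at and 0.166 in Ta.14939.1.S1_s_at. The members thus varied by degree, without separate levels.

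hsp16.9A itself ranged from 3.78 in H8 replicate 3 to 13.57 in B68 replicate 3 on the log2 scale, with a median of 5.36. It lay under 6 in 40 of the 72 arrays, so most of its spread came from the other arrays. In limma's moderated F-test over lines it did not pass (adjusted p = 0.337), and replicate 3 differed from replicate 1 by 0.19 ± 0.56 (SE, 35 lines, limma adjusted p = 0.902). Levels above 8 and levels under 6 occurred together on 11 of the 12 hybridisation days, the days recorded for the array runs. Both levels thus occurred side by side on nearly every day.

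Over the 72 arrays the r of the members with hsp16.9A ran from -0.785 to -0.585 with a median of -0.63, against a median of -0.0067 over the 25401. Ranked values gave a median Spearman rho of -0.605 for the members, with -0.464 as the value nearest 0. The slopes were shallow: a member changed by a median of -0.09 log2 units for each log2 unit of hsp16.9A, and the steepest by -0.21. At the threshold of the rule, Ta.10529.1.S1_s_at (r = -0.58497) and Ta.10108.1.S1_x_at (r = -0.5845) were the last members. TaAffx.15425.1.A1_at (r = -0.5842) and Ta.9581.1.S1_x_at (r = -0.5836) were the first outside. The limit is thus a point in a continuous series of values, with no gap.

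The association was weaker on this side than on the other. The 100 probe sets with the most positive r, hsp16.9A left out, had r from 0.790 to 0.985 and a median SD over arrays of 0.964 log2 units, while the members had a median SD of 0.381. The SD over all 25401 had a median of 0.294. A member spanned a median of 1.86 log2 units from its lowest to its highest array, and 35 members spanned 2 or more. Over the 25401 the median span was 1.47 and the upper quartile 2, so spans of 2 or more were not particular to the members. Their mean levels lay between 6.01 and 10.42 with a median of 7.40, below the median of 7.92 over the 25401. These are intensities of different probe sets, so they rank no transcripts against each other.

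The member with the most negative r was Ta.6143.1.S1_at. Its log2 intensity was lowest in C25 replicate 1 at 4.73, had a median of 6.95 and was highest in D15 replicate 1 at 7.80 (r = -0.785). C25 replicate 1 was among the arrays high in hsp16.9A, at 10.73, and B68 replicate 3 lay close to it at 4.77. Ta.18278.1.S1_at ran from 5.98 in B68 replicate 3 over a median of 7.16 to 8.11 in D15 replicate 1 (r = -0.778). TaAffx.12303.1.S1_at ran from 6.44 in B68 replicate 3 over a median of 8.06 to 8.82 in A40 replicate 1 (r = -0.762). All 3 had their lowest value in an array high in hsp16.9A and their highest in an array with hsp16.9A under 6.

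The next members behaved alike at other mean levels. Ta.8836.1.A1_at ranged from 4.97 in F29 replicate 3 to 7.02 in H8 replicate 3, the array lowest in hsp16.9A, with a median of 6.42 (r = -0.756). Ta.19474.1.S1_at ranged from 7.89 in B68 replicate 3 to 9.64 in A40 replicate 1, with a median of 8.95 (r = -0.749). Ta.11070.1.S1_at ranged from 5.39 in B68 replicate 3 to 7.94 in F48 replicate 3, with a median of 7.22 (r = -0.747). The low end again held F29 and B68, the lines of 2 of the 4 arrays highest in hsp16.9A.

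The remaining 4 of the 10 strongest were dim. Ta.11754.1.A1_at had a mean of 6.29 (r = -0.735), Ta.5230.1.A1_at of 6.26 (r = -0.731), Ta.1379.3.S1_x_at of 6.40 (r = -0.706) and TaAffx.79032.1.S1_at of 6.01 (r = -0.706). Their lowest values were 5.25 in A91 replicate 3, 5.49 in C10 replicate 1, 5.06 in F29 replicate 3 and 4.62 in B68 replicate 3. Each of these arrays had an hsp16.9A level of 10.2 or more.

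**Figure D1:**
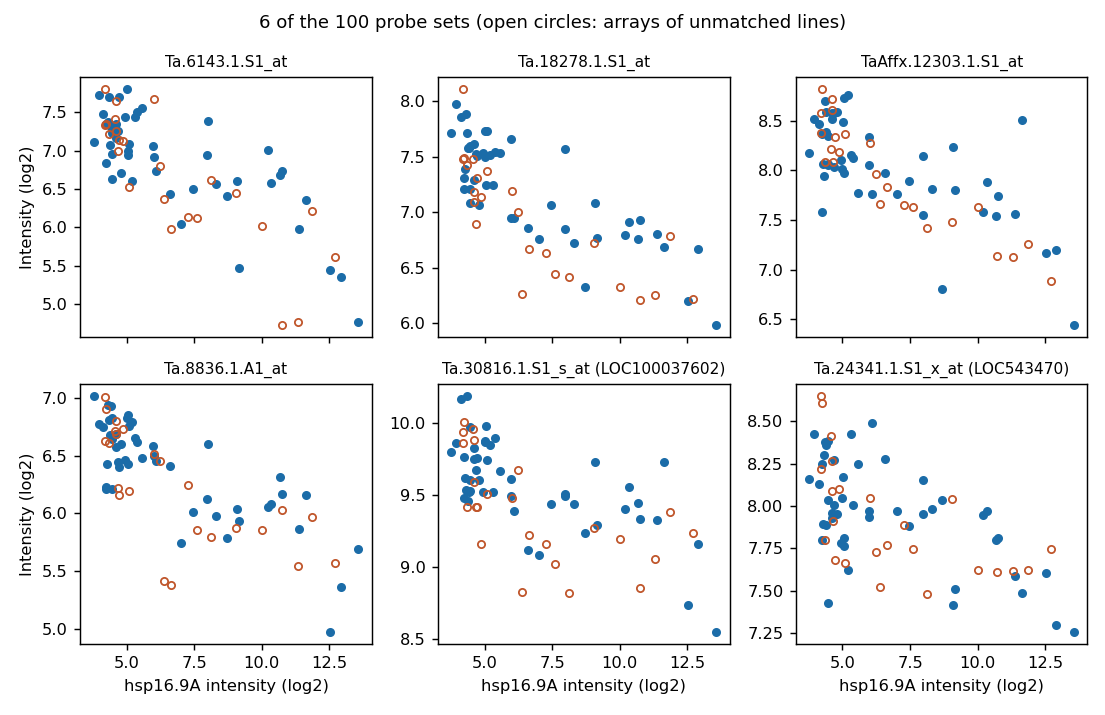
Log2 intensity of 6 members (y axes) against that of hsp16.9A (x axes), 1 point per array, 72 arrays in each panel; open circles are the 24 arrays of the 12 unmatched lines. In each panel the points slope downwards with a wide scatter, as for Ta.6143.1.S1_at, which reached 7.80 at low hsp16.9A and 4.73 at high.

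Both members with a gene symbol lay in the middle of the set. Ta.30816.1.S1_s_at, assigned to LOC100037602, had a lowest log2 intensity of 8.55 in B68 replicate 3, a median of 9.52 and a highest of 10.19 in F48 replicate 3 (r = -0.633). The array carries 3 further probe sets for that locus, none of them a member. Their r values were -0.498 for Ta.30816.1.S1_at, with a mean of 6.96, and -0.479 and -0.464 for TaAffx.118164.1.S1_at and TaAffx.118164.1.S1_x_at, whose means were under 6. All 4 probe sets of the locus thus had a negative r. Ta.24341.1.S1_x_at, assigned to LOC543470, ran from 7.26 in B68 replicate 3 over a median of 7.95 to 8.65 in D15 replicate 1 (r = -0.600).

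The members with the largest SD were Ta.14939.1.S1_s_at (0.769), Ta.6143.1.S1_at (0.724), Ta.9482.1.S1_s_at (0.625), Ta.5420.2.S1_a_at (0.619) and TaAffx.18447.5.S1_s_at (0.590). Ta.14939.1.S1_s_at was bright in most arrays, with a median of 9.95 and a highest value of 10.83 in F48 replicate 3, and was at 6.82 in B68 replicate 3. Ta.9482.1.S1_s_at was lowest in F38a replicate 1 at 5.91, with a median of 8.05 and a highest value of 9.16 in F82 replicate 1. The 3 members with the highest mean, Ta.9531.1.A1_at (10.42), Ta.3039.1.S1_at (10.15) and Ta.9256.1.S1_at (10.11), were all lowest in B68 replicate 3, at 9.71, 9.24 and 9.03. Bright and dim probe sets were thus both among the members.

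Array by array the 100 members moved as a block, which the rule in part imposes. Each member was set against its own mean over the 72 arrays, and the median of these 100 deviations was taken as the member level of an array. It ran from -0.82 log2 units in B68 replicate 3 to 0.49 in A40 replicate 1, and its r with hsp16.9A was -0.85 (rho = -0.815). In B68 replicate 3, A91 replicate 3 and F29 replicate 3 all 100 members lay below their own mean, and in A77 replicate 3, 98 did. These are the 4 arrays highest in hsp16.9A. Of the members, 81 had their lowest value in one of these 4 arrays and 47 had it in B68 replicate 3. All 100 had their highest value in an array with hsp16.9A under 6.

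The relation was not a fixed one between levels. H9 replicate 3, sixth in hsp16.9A at 11.65, had a member level of -0.05 with 59 members below their means. A88 replicate 1, at 10.76, had -0.10 with 65 below. E5 replicate 1, at an hsp16.9A level of only 6.38, had -0.42 with 94 below, and H5 replicate 1, at 8.11, had -0.41 with 96 below. Arrays with like hsp16.9A levels could therefore differ clearly in the members. H9 was a line with matching arrays, while E5 and H5 were among the 12 unmatched lines.

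**Figure D2:**
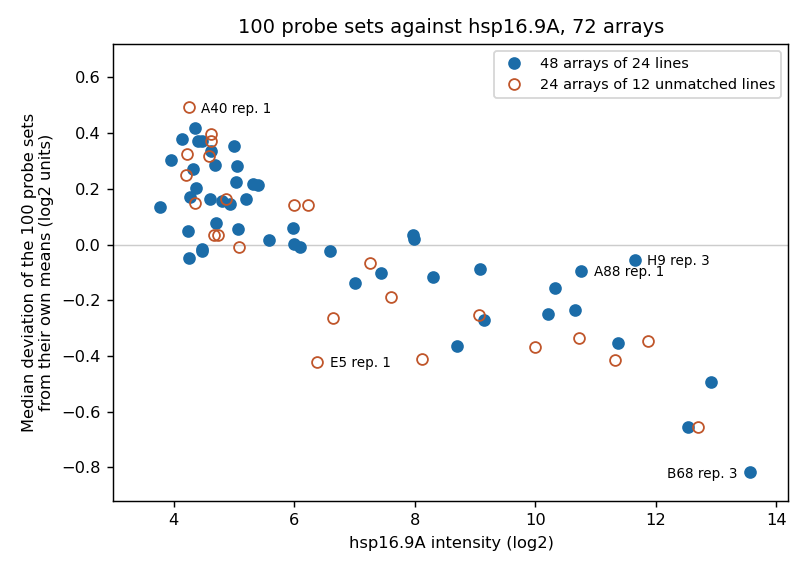
Median deviation of the 100 members from their own means (y axis, log2 units) against the log2 intensity of hsp16.9A (x axis), 1 point per array; open circles are the 24 arrays of the 12 unmatched lines. The member level runs from 0.49 in A40 replicate 1 to -0.82 in B68 replicate 3, with H9 replicate 3 and E5 replicate 1 far from the common slope.

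Of the 4950 pairs of members, none had an r below 0. The pairwise r ranged from 0.043, between Ta.18278.2.S1_a_at and TaAffx.22459.1.S1_at, to 0.975, between Ta.8707.1.S1_at and Ta.8707.1.S1_x_at, pairs chosen after their values were seen. The mean was 0.561, against 0.0681 over all pairs of the probe sets with that mean level. The first principal component held 57.2% of the variance of the members and the second 7.3%. When the part linear in hsp16.9A was removed from each member, the median pairwise r was 0.269 and the lowest -0.578. The members thus still shared part of their variation across arrays beyond hsp16.9A, and some pairs then ran against each other.

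Some of that sharing is built in, because members can read the same transcript. By the cluster number in the probe set name the 100 members stand for 89 transcript clusters, and 9 clusters held several members, 20 in all. Clusters Ta.1379 and Ta.5420 held 3 each, and Ta.18278, Ta.8707, Ta.9180, Ta.8183, Ta.647, Ta.7634 and TaAffx.79032 held 2 each. Wheat is hexaploid, with closely similar copies of most genes on different subgenomes, so a probe set can also read several copies at once. In 23 clusters another 39 probe sets reached the mean level of 6 without being members. Of those, 35 had a negative r with hsp16.9A, with a median of -0.442 and a range from -0.582 to 0.192. Most probes to the same clusters therefore leaned the same way without reaching the limit.

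The name suffix of a probe set tells how specific its probes are. Plain names marked 65 members (65.5% of the 25401), the suffix a marked 9 (10.9%), the suffix s, for probes shared by several transcripts, 13 (6.87%) and the suffix x, for probes that may bind unrelated ones, 13 (16.8%). Names beginning with TaAffx were carried by 20 members, against 29.7% of the 25401. These shares are descriptions of the annotation, and no test was made of them.

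The members kept their negative r within each replicate number. On the replicate 1 arrays alone their median r was -0.610 (-0.030 over the 25401), and on the replicate 3 arrays alone it was -0.674 (0.012 over the 25401). These arrays were part of those that chose the members, so the choice was also made on each set alone. The 100 probe sets most negative on replicate 1 arrays had a median r of -0.599 on the replicate 3 arrays, where 98 of them were below 0. The 100 most negative on replicate 3 arrays had a median r of -0.523 on the replicate 1 arrays, and all 100 were below 0. Over the 25401 probe sets, 48% and 55.8% were below 0 on the replicate 3 and the replicate 1 arrays. The 2 choices shared 60 and 64 probe sets with the members. Both sets of arrays come from the same lines, apart from H9 in the replicate 3 set. They are therefore not independent, and these values are a description only.

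The next values split the same arrays by line and by day, so their sign is largely fixed by the rule, and they are a description only. Between the means of the 36 lines the members had a median r of -0.664 (0.027 over the 25401), and between those of the 24 matching lines -0.718 (0.018). Within lines, using only the difference between the arrays of a line, the median was -0.622 and every member was below 0, with -0.406 as the value nearest 0 (-0.047 over the 25401). With the 12 unmatched lines left out, the median within lines was -0.438 and the value nearest 0 was -0.217 (0.004 over the 25401). The values within matching pairs were nearer 0 than those within all pairs. Within hybridisation days the median r was -0.677, and in the 8 days with at least 6 arrays the member level had an r with hsp16.9A between -0.967 and -0.672.

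**Figure D3:**
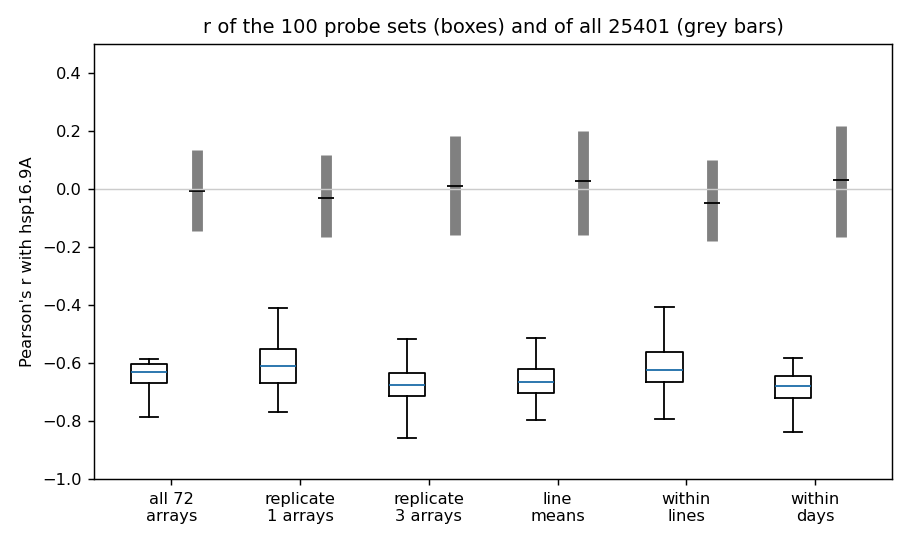
Pearson's r with hsp16.9A (y axis) for the 100 members (boxes with median and quartiles, whiskers to the lowest and highest) and for the 25401 probe sets (grey bars between the quartiles, black tick at the median), by the arrays or deviations used (x axis). The boxes have medians from -0.677 within days to -0.610 on replicate 1 arrays, and the grey bars lie around 0.

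Within lines the members and hsp16.9A mostly differed in opposite directions, which is again in large part what the rule selected for on these arrays. Of the 35 lines with replicates 1 and 3, the member level moved against hsp16.9A in 28, and the r of the differences was -0.843. Over the 23 of these lines with matching arrays it did so in 16, with an r of -0.72. In 19 lines the hsp16.9A levels of the 2 arrays lay 2 or more log2 units apart, and in all 19 the member level was lower in the array with more hsp16.9A, by 0.07 to 0.82. Of these, 10 were lines with matching arrays, and between 59 and 99 of the 100 members ran opposite in a line. The other lines, with small hsp16.9A differences, showed no common direction: in B65, where hsp16.9A was 0.75 higher in replicate 3, the member level was 0.40 higher too and 14 members ran opposite.

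The 3 matching lines with the widest hsp16.9A difference show this in single values. In DH95, hsp16.9A was at 4.70 in replicate 1 and 10.66 in replicate 3, while Ta.6143.1.S1_at was at 7.70 and 6.68 and Ta.18278.1.S1_at at 7.51 and 6.76. TaAffx.12303.1.S1_at was at 8.03 and 7.54, the probe set of LOC100037602 at 9.76 and 9.45, and that of LOC543470 at 8.27 and 7.80. All 5 were lower in the array with more hsp16.9A, and so were 96 of the 100 members. In F48, hsp16.9A was at 8.70 in replicate 1 and 4.36 in replicate 3, and Ta.6143.1.S1_at was at 6.41 and 7.70, Ta.18278.1.S1_at at 6.33 and 7.71, and TaAffx.12303.1.S1_at at 6.81 and 8.70. The probe set of LOC100037602 was at 9.24 and 10.19 there, and 95 members were opposite. The probe set of LOC543470 was at 8.04 and 8.38 in F48. F48 had a smaller hsp16.9A difference than DH95 and larger differences in these probe sets, except in that of LOC543470, where the difference was smaller.

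Line A88 had the weaker form of the pattern. hsp16.9A was at 10.76 in replicate 1 and 5.07 in replicate 3, Ta.18278.1.S1_at was at 6.93 and 7.73, and Ta.6143.1.S1_at was at 6.73 and 7.09. The probe set of LOC543470 was at 7.81 in both arrays. In A88, 71 members ran opposite and the member level differed by 0.15.

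**Figure D4:**
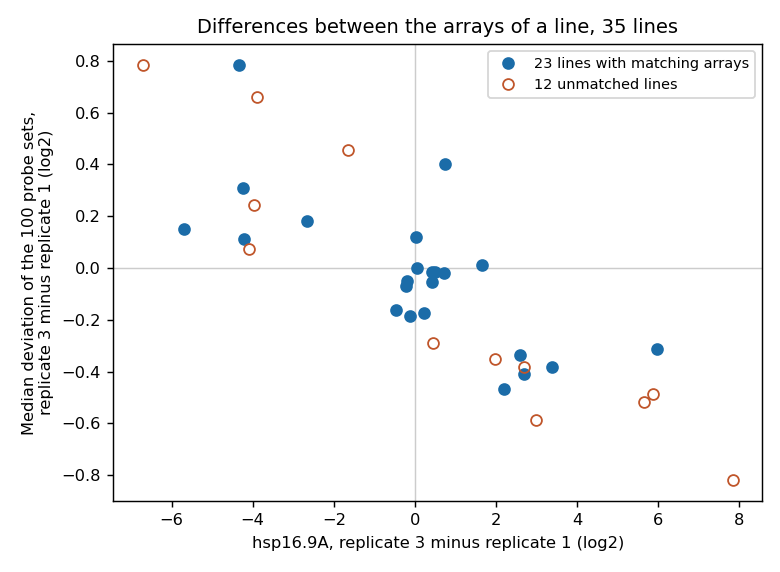
Difference in the member level between replicate 3 and replicate 1 of a line (y axis, log2 units) against the difference in hsp16.9A (x axis, log2 units), 1 point per line, 35 lines; open circles are the 12 unmatched lines. All 19 lines more than 2 log2 units from 0 on the x axis lie in the upper left or the lower right, from A91 with a member difference of -0.82 to F48 with 0.78.

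Whether the members differed between lines was tested with limma's moderated F-test on all 61179 probe sets, a measure the rule did not use although it rests on the same arrays. Of the 100 members 1 passed at an adjusted p under 0.05, against 2.54% of all probe sets and 4.09% of those with a mean of at least 6. At an unadjusted p under 0.05 there were 18 members, where 19.5% of the probe sets with that mean and 13.9% of all passed. In this fit the members were thus called between lines no more often than other probe sets, but this did not hold in every fit. With the hybridisation day as a block 8 members passed, against 2.65% of all probe sets and 4.34% of those with a mean of at least 6. Without the 12 unmatched lines, an alternative added after the data were seen, 6 passed, against 3.99% and 6.3%, so that count exceeded the share over all probe sets and not that over the brighter ones. The intraclass correlation, the share of the variance between arrays that lies between lines, had a median of 0.132 in the members and 0.081 over the 25401, and 13 members had an estimate below 0. Over the 24 matching lines the medians were 0.315 and 0.102.

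The member that passed was Ta.11426.1.A1_at, whose transcript is unnamed here. Its lowest line mean was 6.84 in B68 and its highest 8.56 in A35, with a residual SD of 0.27 between the arrays of a line (F = 3.00, limma adjusted p = 0.0268). In A35 it was at 8.60 and 8.53, and in B68 at 7.36 in replicate 1 and 6.33 in replicate 3, so the low line was also the one whose arrays lay far apart. The call was lost in 6 of the 72 fits with 1 array left out, those without either array of F29 or of A35, without B68 replicate 3 or without G30 replicate 3, which leaves 0 members called. Without B68 replicate 1 there were 4, without F38a replicate 3 or F48 replicate 1 there were 3, and without either array of DH91, A91 replicate 1 or F48 replicate 3 there were 2. The share of all probe sets called in these fits was not counted. Ta.11426.1.A1_at did not pass with the hybridisation day as a block (limma adjusted p = 0.0826), nor with the 3′ to 5′ signal ratio described below (0.0632) or without the 3 arrays farthest from the mean array (0.0503). At the other end, Ta.6996.1.S1_at (limma adjusted p = 0.934), Ta.22205.1.S1_at (0.885) and Ta.3657.1.S1_at (0.869) had the largest p-values. Line means of Ta.6996.1.S1_at ran from 5.38 to 7.03 with a residual SD of 0.629. Its intraclass correlation was -0.222, so by this estimate its spread lay more within lines than between them.

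**Figure D5:**
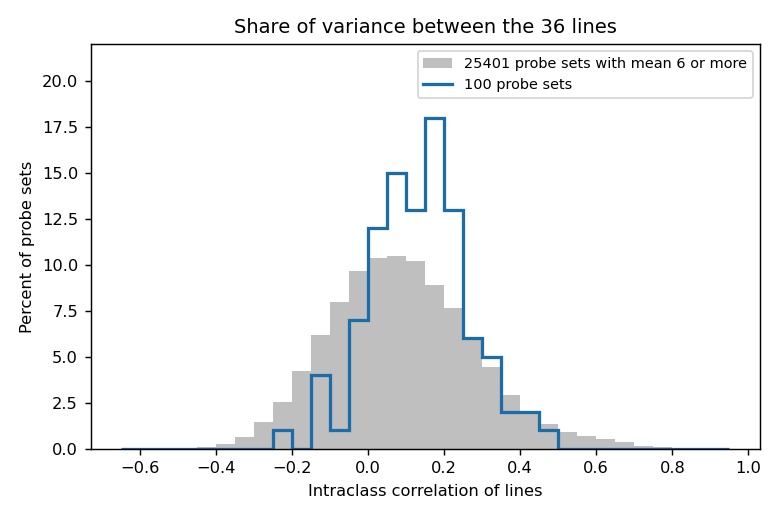
Distribution of the intraclass correlation of lines (x axis, share of variance between the 36 lines) for the 100 members (blue outline) and for the 25401 probe sets (grey), as a percent of each set (y axis). The medians are 0.132 and 0.081, and the members reach 0.485, the value of Ta.11426.1.A1_at.

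Replicate 3 was compared with replicate 1 over the 35 lines with both, with the line as a block. By limma 3 members were lower in replicate 3 at an adjusted p under 0.05, against 1.98% of all probe sets and 3.68% of those with a mean of at least 6. None was higher by limma, where 0.616% and 0.953% of the probe sets were. At an unadjusted p under 0.05, 18 members were lower and 0 higher, against 18.7% lower and 7.8% higher among the probe sets with that mean and 11.8% and 6.74% among all. The median difference of the members was -0.06 log2 units, and 73 of 100 were below 0, against -0.03 and 59.0% over the 25401. The direction turned when the hybridisation day was added as a block: the median was 0.28 with 2 of 100 below 0, against 0.06 and 33.8% over the 25401, and limma called 0 of all 61179 probe sets. Without the 12 unmatched lines 3 members were called, against 1.32% of all probe sets and 2.44% of those with a mean of at least 6 in either direction, and the median was -0.02. In the comparison over all 35 lines the count of lower members lay near that of other probe sets.

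Ta.22548.1.S1_a_at had a mean of 7.11 ± 0.35 in replicate 1 and 6.78 ± 0.41 in replicate 3 (SD, 35 arrays each), a difference of -0.33 (limma adjusted p = 0.0149). Ta.14065.1.S1_at had 6.24 ± 0.37 and 5.94 ± 0.36, a difference of -0.30 (limma adjusted p = 0.0173). Ta.10108.1.S1_x_at had 9.67 ± 0.25 and 9.48 ± 0.25, a difference of -0.19 (limma adjusted p = 0.0404), and kept its call in 14 of 35 fits with 1 line left out. For all 3 the replicates overlapped widely, and 7 of the 35 lines were higher in replicate 3. Only 3 hybridisation days held arrays of both replicate numbers, so replicate and day cannot be fully separated. Within those days Ta.22548.1.S1_a_at was lower in replicate 3 on 3 of 3, with differences from -0.172 to -0.0045, and Ta.14065.1.S1_at on 3 of 3, from -0.153 to -0.0428. Ta.10108.1.S1_x_at was lower on 1 of 3, and with the day as a block none of the 3 passed (limma, adjusted p from 0.83 to 0.937). With the 3′ to 5′ ratio as a covariate none passed either (limma, adjusted p from 0.0613 to 0.137), where 1 of all 61179 probe sets did, and Ta.10108.1.S1_x_at did not after quantile normalisation (0.0808) or median centring (0.0507). The count of members was 6 without line H5 and 5 without G13, F38a or B33, and the share of all probe sets called in these fits was not counted.

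No member belonged to any of the gene lists or cell type marker lists, which were matched by symbol or synonym and hold few probe sets because the annotation is sparse. Only the 2 members with a gene symbol could have matched, so this does not show what the members encode. The lists were therefore set beside the member level of each array. By the rule the member level ran against hsp16.9A (r = -0.85), so an r with it can in part mirror an r with hsp16.9A. The 2 probe sets of the heat shock and chaperone list are hsp16.9A and that of FKBP70, a peptidyl-prolyl isomerase that assists protein folding. FKBP70 had a mean of 11.19, an r of 0.621 with hsp16.9A and of -0.489 with the member level. Neither passed the line or the replicate test.

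Of the 29 probe sets for cell growth and division, 20 had a negative r with hsp16.9A, and the mean of the list had an r of -0.109 with hsp16.9A and 0.339 with the member level. By limma 0 passed between lines and 2 were lower in replicate 3. All 9 probe sets for histone H2A, a core protein of chromatin made while DNA is copied, had a negative r with hsp16.9A, from -0.297 to -0.123, and a positive r with the member level, from 0.268 to 0.503. Of the 9 probe sets for histone H2B 5 had a negative r with hsp16.9A (-0.416 to 0.054), and their r with the member level ran from 0.01 to 0.55. Of the 8 for beta-tubulin 4 had a negative r with hsp16.9A (-0.129 to 0.21), and 7 a positive r with the member level (-0.063 to 0.374). These families were singled out after their values were seen. Most of the H2A probe sets were for the locus LOC732714 and most of the H2B ones for LOC543184, so they are not separate cases. Of the probe sets for the alpha-tubulin gene TUBA, Ta.723.1.S1_at had an r of -0.715 with the member level and Ta.812.1.S1_x_at of 0.197. Their r values with hsp16.9A were 0.659 and -0.039. Probe sets of the same gene thus ran in different directions, and their part in the result was not tested.

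Of the 8 probe sets for protein synthesis 3 were lower in replicate 3 (limma, adjusted p from 0.0278 to 0.0488), among them both probe sets for the gene TEF1. Between lines 0 passed. Another of the 8, Ta.24254.3.S1_x_at for the ribosomal protein gene RPS29, had an r of 0.727 with hsp16.9A and of -0.735 with the member level. The other RPS29 probe set, Ta.30687.2.S1_x_at, had 0.039 and -0.03. The mean of that list had an r of 0.558 with hsp16.9A and of -0.396 with the member level. The median r of its probe sets with the member level was 0.04, however, and 5 of 8 were above 0. Of the 36 probe sets for photosynthesis 1 passed between lines and 1 was higher in replicate 3. Their mean had an r of 0.307 with hsp16.9A and of -0.371 with the member level. Of those 36, 28 are for rbcl, the large Rubisco subunit (median r with the member level -0.163), and 24 of these have a mean under 6. The 8 for other photosynthesis genes had r values with the member level from -0.073 to 0.155, with 4 above 0. Of the 12 for redox 1 passed and 1 was lower, of the 8 for starch and sugar 2 passed between lines, and of the 4 for signalling and transport 1 was higher in replicate 3. The list means of the last 3 had r values with the member level of 0.003, -0.079 and 0.128. None of those 3 lists followed the members closely.

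Markers of the tissues a young seed can hold moved little with the members. The green pericarp list, 8 probe sets, had list means per array between 9.16 and 10.20 and an r of -0.036 with the member level. The starchy endosperm list (15 probe sets, means per array 4.79 to 5.28) had -0.102, the embryo and aleurone list (12 probe sets, 4.53 to 4.98) -0.030 and the anther list (4 probe sets, 4.11 to 4.66) -0.065. The transfer cell list, with 2 dim probe sets, had 0.172, and the nucellus list matched no probe set. By limma 1 probe set each of the green pericarp and the starchy endosperm lists passed between lines, and 1 of the embryo and aleurone list was lower in replicate 3. The green layers were bright in all arrays, and storage and embryo markers were dim, with 3 of 15 and 2 of 12 probe sets at a mean of 6 or more.

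Properties of the arrays moved with the members in part. The 3′ to 5′ signal ratio of 6 wheat control genes, which rises as RNA breaks or labelling stops early, ran from 0.335 to 1.34 on the log2 scale. Its r was 0.286 with the member level and -0.208 with hsp16.9A, and its r with single members had a median of 0.232, with 91 of 100 positive. Over the 25401 the median r with the ratio was -0.007, and 50.9% were below 0. The members thus leaned towards a positive r with the ratio more than other probe sets did. After removal of the ratio the members' r with hsp16.9A had a median of -0.621, close to the value without it. The array median, between 5.31 and 5.44, had an r of 0.071 with the member level and of -0.254 with hsp16.9A. The distance of an array from the mean array had an r of 0.065 with the member level.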

How the data were processed

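The labels give polyadenylated RNA of whole seeds, labelled with biotin, on a 1-colour wheat array. The deposited intensities are probe set summaries on a linear scale from 6.0247 to 29610, and the submitters' processing notes name RMA, with no version. Such values mostly come as log2. The deposited ones were linear and were transformed to log2 with pseudocount 0 (0 values were at or below 0) and not normalized further. The table holds 61290 probe sets, of which 111 are controls, and 0 columns could not be mapped to a sample. For arrays, their number limits the precision. No genome coordinates are given, since the build of the array is not named, and no sequences of the members were used here. Symbols come from the supplied platform annotation (1273 probe sets with 1 symbol, 0 with several, 59906 with none), and 770 of 771 loci were found in the supplied RefSeq table. The hybridisation day was taken from the deposited run records.

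Tests used limma 3.58.1 in R 4.3.3 and correlations Python 3.11.15, with Benjamini-Hochberg adjustment over 61179 probe sets and an adjusted p threshold of 0.05. The line test has 1 mean per line over 72 arrays, and the replicate test has the line as a block over 35 lines. The labels do not tie the replicate numbers to plots of the field, so p-values measure the spread between these samples. In data simulated from these 61179 probe sets, a small part of them was given a difference, and the noise was drawn independently. Of those, the line test recovered 0%, 28%, 92% and 100% at intraclass correlations of 0.3, 0.5, 0.7 and 0.9. The replicate test recovered 6%, 56%, 96% and 98% at differences of 0.1, 0.25, 0.5 and 1 log2 units. With so few differences the adjustment was stricter than in the real data, so these shares are not the power of the tests made here. The members' intraclass correlations, with a median of 0.132 and a highest of 0.485, lay where the simulation recovered few.

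The members and lists were chosen with earlier results of these data known. Named were members with a symbol, the 10 most negative r, the 2 on each side of the limit, the 5 largest SD, the 3 highest means, the 3 widest gaps, up to 10 past the line test with the 3 largest p, and up to 5 per direction past the replicate test.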

Additional observations from a re-analysis of the deposited data

How the results depend on the processing

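All 100 members had a negative r with hsp16.9A under each setting for which r was recomputed, as the rule largely fixes. Of the 100, the most negative 100 kept 62 when r was taken within lines, 60 on replicate 1 arrays, 64 on replicate 3 arrays, 63 with a mean of 7 or more, and 60 on linear intensities. They kept 72 to 95 under the other settings, which include quantile normalisation (74), median centring (95) and, chosen after seeing the data, the omission of the 12 unmatched lines (74) and of B68 replicate 3 and A77 replicate 3 (87). With 1 array left out, 88 to 100 were kept. The line test called 8 members with the hybridisation day as a block (2.65% of all 61179 probe sets), 0 with the 3′ to 5′ ratio as a covariate (2.17%), 0 without the 3 arrays farthest from the mean array (B65 replicate 1, B33 replicate 3 and C31 replicate 3; 2.96%), 6 without the 12 unmatched lines (3.99%, chosen after seeing the data) and 0 to 4 with 1 array left out. In those fits limma gave Ta.11426.1.A1_at an adjusted p of 0.0826 with the day, 0.0632 with the ratio and 0.0503 without the 3 arrays. The replicate comparison called 0 members with the day as a block and 0 with the ratio, where limma called 0 and 1 of all 61179 probe sets, and 2 to 6 with 1 line left out, the 6 without H5. For the fits with 1 array or 1 line left out, the share of all probe sets called was not counted. With the day as a block the median difference of the members was 0.28 and Ta.10108.1.S1_x_at was higher, by 0.13 (limma adjusted p = 0.83). The cause was not tested.

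With the replicate number as a replicate block the line test called 3 members (2.68% of all), and with no replicate block, the line left out, the replicate comparison called 1 (1.58%). Deviations of same-numbered arrays from their line means had a median r of 0.05 over 595 pairs (-0.716 to 0.657, with 255 over 0.1). At the median same-numbered arrays thus shared little across lines, but the range was wide. These values do not settle whether the numbers pair the arrays.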

Other observations

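Among the 838 annotated probe sets with a mean of at least 6 besides hsp16.9A, those nearest to and farthest from the member level were looked up after their values were seen. Outside the members, Ta.11040.1.S1_at (LOC543014) had an r of 0.735 with the member level, Ta.30816.1.S1_at (LOC100037602) of 0.709 and Ta.16369.1.S1_x_at (LOC542806) of 0.699. Ta.22973.1.S1_x_at (LOC543421) had -0.824, Ta.201.1.S1_at (LOC543477) -0.821 and Ta.28758.1.S1_at (LOC542846) -0.799, with r values of 0.884, 0.972 and 0.908 with hsp16.9A. The tables give these loci no role.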
